A study of Nomascus leucogenys and Hoolock leuconedys and Nomascus gabriellae with 23 samples.

Results

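The sites described here are insertions of the retrotransposon LAVA that the deposited table assigns to genes of small GTPase signalling. Membership is set by the gene name: it starts with ARHGAP, ARHGEF, DOCK, TBC1D, RAPGEF, RASGRP, RASGRF, RASA, DENND, IQGAP, SIPA1L or RAB followed by a digit, and holds no hyphen. This rule was chosen with earlier results of these data known. The rule took 49 of the 5490 listed sites, under 41 of 2607 gene names. The other 3094 sites with a gene name are the set they are compared with. No member carries the prefix RASGRF.

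Blood DNA of 23 gibbons of 4 genera was sequenced to find which animals carry LAVA at which positions. The 13 Nomascus animals comprised 11 N. leucogenys and 2 N. gabriellae. The 5 Hylobates animals were 2 H. moloch, 1 H. lar, 1 H. muelleri and 1 H. pileatus. The 3 Hoolock animals were H. leuconedys and the 2 Symphalangus animals S. syndactylus. Each animal is 1 library from 1 blood sample, with no treatment, and the labels give neither its age nor its relatives. A call is 1 (carried), 0 (not carried) or missing. The files hold no read numbers, so the depth behind a call is unknown and a heterozygous carrier cannot be told from a homozygous one.

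LAVA is a composite element of gibbons, assembled from pieces of a LINE, of Alu elements and of a tandem-repeat region, and copied through RNA. Small GTPases are molecular switches that are active when bound to GTP. Guanine nucleotide exchange factors load GTP and turn them on, and GTPase-activating proteins speed up its hydrolysis and turn them off. Rac and Cdc42 govern the actin cytoskeleton, Rab proteins mark membrane compartments and steer vesicle traffic, and Ras and Rap relay signals for growth and adhesion.

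The table's positions span a single base at 40 of the 49 sites (single-base sites) and the length of the element at 9 (interval sites). Positions are given here as chromosome and base, with the first base as 1, on the build of the deposited table, which the sources used here do not name. The location class is the table's own. Of the 49 sites, 46 were classed as intronic and 3 as promoter. None was classed as exonic, untranslated or terminator. A count of 0 among 49 allows a share of up to 6.12% by the limit of 3 counts, and of up to 7.25% by the exact 95% interval. Terminator sites made up 5.79% of the other named sites, so their absence among members was within what this number of sites allows. The gene identifiers beside the names are human Ensembl identifiers. RefSeq's gene table for the gibbon assembly Asia_NLE_v1 listed 39 of the 41 names, all as protein-coding genes, but not ARHGAP11B and TBC1D7.

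Members lay on 19 of the 26 chromosomes that hold a listed site. Chromosome 4 had 7 and chromosome 6 had 5. Sites in different member genes lay within 1000000 bp of each other in 2 cases. The DENND4A and RAB11A sites on chromosome 6 were 84164 bp apart, and the DENND6A and ARHGEF3 sites on chromosome 4 were 920007 bp apart.

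Calls were missing at 4 of the member sites, 1 animal at each, so that 0.355% of member calls were missing, against 0.712% over all sites. Missing calls were counted as not carried. They fell on H. pileatus at ARHGAP22 and TBC1D5, on H. moloch replicate 2 at RASAL2 and on N. leucogenys replicate 3 at the first RAPGEF6 site. Every listed site had at least 2 carriers, so insertions seen in a single animal could not be counted.

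**Figure D1:**
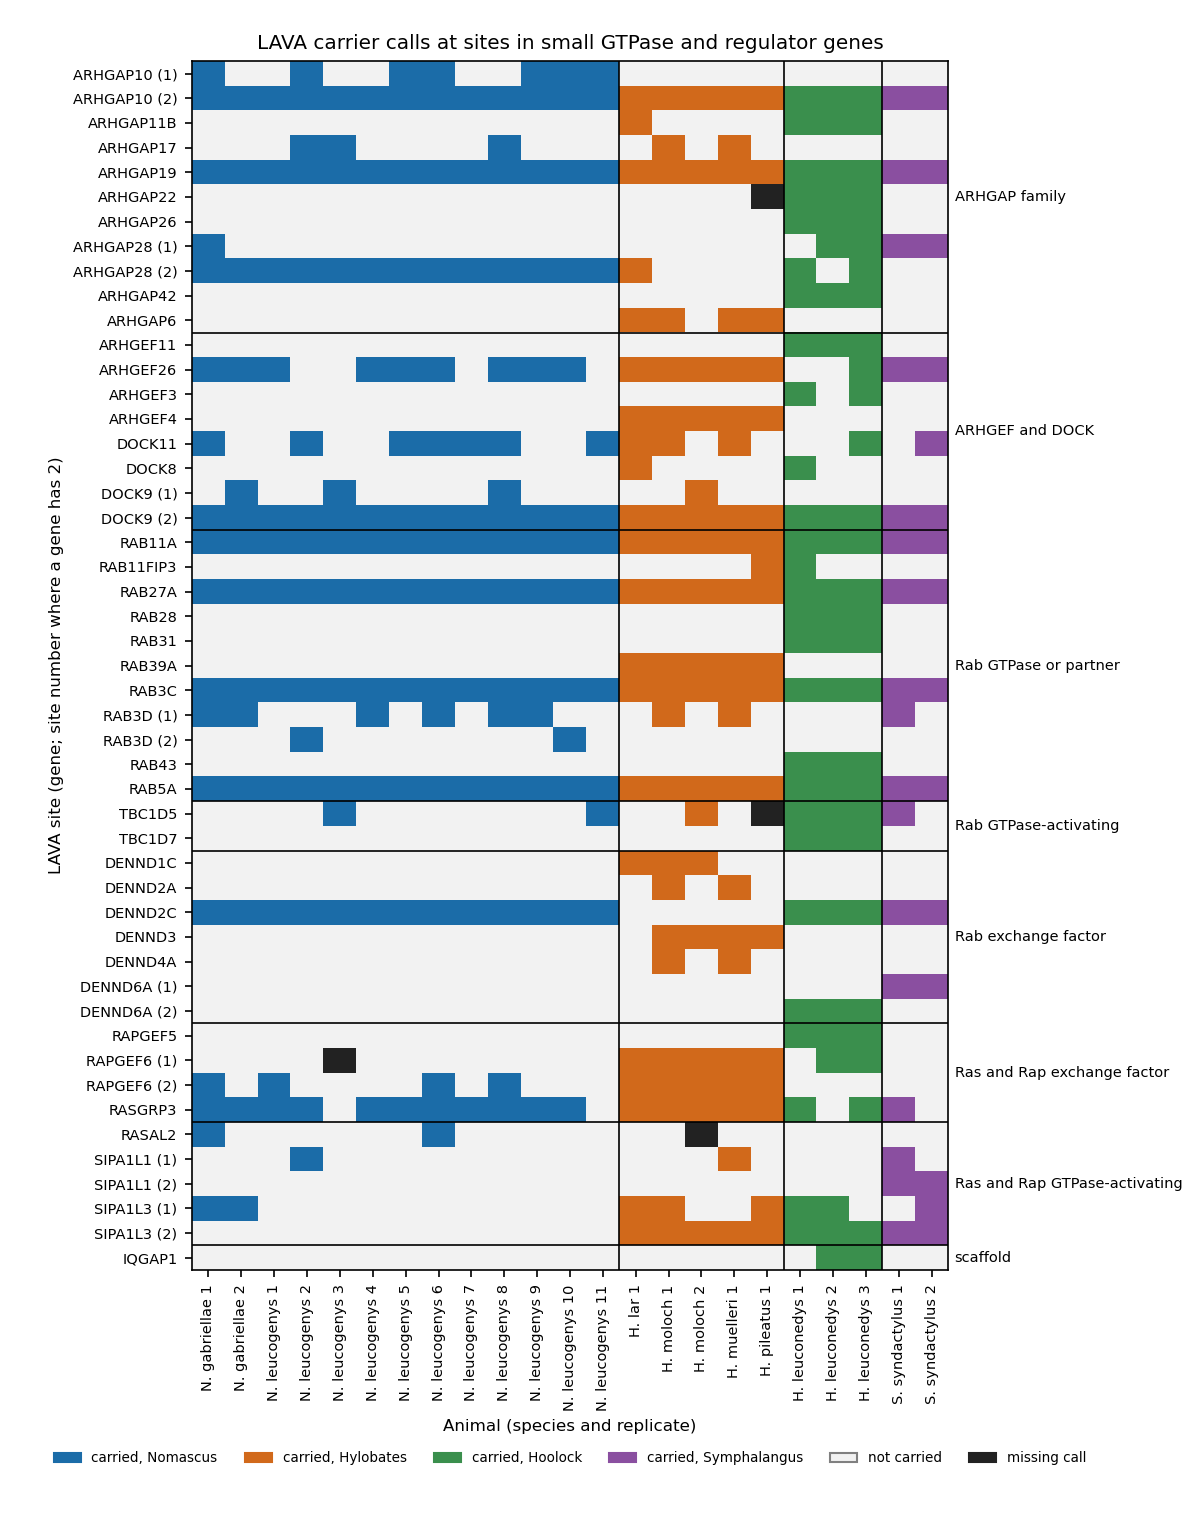
Carrier calls at the 49 member sites (rows, grouped by the role of the gene) in the 23 animals (columns, grouped by genus). Filled cells are carried insertions, pale cells are not carried and black cells are the 4 missing calls. At 7 sites the row is filled in every animal, and 10 rows are filled in the 3 Hoolock animals alone.

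For every site the share of carriers in 1 genus was compared with that in all remaining animals by Fisher's exact test, two-sided, with Benjamini-Hochberg adjustment over all 5490 sites and a threshold of 0.05. The 4 comparisons reuse the same animals, and animals of a genus share insertions by descent, so the p-values describe these animals only. At least 1 comparison called 23 of the 49 members (46.9%), in 21 genes, and 26 members were called in none. Over all sites 46.7% were called at least once, and over the other named sites 45.7%.

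The Hoolock comparison called 11 members, all with a higher share of carriers in the 3 Hoolock animals than in the 20 others, a direction in which 18.7% of all sites were called. No member was called in the other direction, and none was lower in Hoolock even at an unadjusted p under 0.05 by Fisher's exact test, as 82 of all 5490 sites were. Over all sites 0.182% were called lower. At 10 of the 11 sites every Hoolock animal and no other animal carried the insertion, a pattern that 17.3% of all sites showed. In Hylobates 7 members were called with a higher share and 1 with a lower share than in the other 18 animals, against 11.5% and 0.856% of all sites. Every Hylobates animal and no other carried 2 of these, a pattern at 3.5% of all sites. In Nomascus 1 member was called higher and 2 lower than in the other 10 animals, against 3.01% and 4.79% of all sites. In Symphalangus 2 members were called higher and 0 lower than in the other 21 animals, against 9.58% and 0.0364% of all sites. Every listed site has at least 2 carriers, so a site found in Symphalangus alone is always carried by both animals. Each such site, and no other, was called higher, so these calls add nothing beyond that pattern. At an unadjusted p under 0.05 by Fisher's exact test, 3 members were higher and 0 lower in Symphalangus, against 643 and 14 of all 5490 sites. The same unadjusted count was 10 higher and 2 lower in Hylobates, against 1090 and 146 of all sites, and 3 higher and 8 lower in Nomascus, against 301 and 794.

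The ARHGAP family, named for GTPase-activating proteins that act on switches of the cytoskeleton, contributed 11 sites in 9 genes. Of the 11 sites, 4 were called higher in Hoolock, 1 higher in Hylobates and 1 higher in Nomascus. Over all sites the shares called higher were 18.7%, 11.5% and 3.01% in the same order. ARHGAP26 and ARHGAP42, which encode the BAR-domain GTPase-activating proteins GRAF1 and GRAF3, each held an intronic site in sense orientation carried by 3 of 3 Hoolock and 0 of 20 other animals (Fisher's exact test, adjusted p = 0.00326). The ARHGAP42 element was 1837 bp long (chromosome 15, 34839529) and the ARHGAP26 element 303 bp (chromosome 2, 38075324), the longest and the shortest single-base members of the family. ARHGAP22, a Rac GAP gene, had an antisense site of 1299 bp with the same carriers and 1 missing call in Hylobates. All 3 genes thus showed the Hoolock pattern with elements of very different length.

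ARHGAP10, whose product GRAF2 is another BAR-domain protein of that kind, had 2 intronic sites on chromosome 7b, both antisense and 14637 bp apart. The interval site from 71536827 to 71538079 was carried by all 23 animals. The near full-length site at 71522190, of 1820 bp, was carried by 7 of 13 Nomascus and 0 of 10 other animals and was not called (Fisher's exact test, adjusted p = 0.0545). Its carriers were 6 of 11 N. leucogenys and 1 of 2 N. gabriellae, so both species held carriers and non-carriers.

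ARHGAP28, a RhoA GAP gene, also had 2 antisense sites, 92079 bp apart on chromosome 4. The interval site from 67116935 to 67117749 was carried by 13 of 13 Nomascus and 3 of 10 other animals, the only member called higher in Nomascus (Fisher's exact test, adjusted p = 0.00824). Outside Nomascus its carriers were H. lar and Hoolock replicates 1 and 3. The shorter site, of 452 bp at 67024856, had carriers in N. gabriellae replicate 1, in Hoolock replicates 2 and 3 and in both Symphalangus animals, and was called in no comparison. Of the 19 animals with either site, 2 had both, N. gabriellae replicate 1 and Hoolock replicate 3.

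ARHGAP11B was carried by 3 of 3 Hoolock animals and by H. lar alone among the other 20 (chromosome 6, 68618768, 920 bp, sense; Fisher's exact test, adjusted p = 0.0126). Leaving out any 1 Hoolock animal ended this call, with an adjusted p of up to 0.0684. The name belongs to a human-specific partial copy of ARHGAP11A, and RefSeq's gibbon gene table did not list it. With no annotation of this build, the gibbon gene behind the name cannot be told. ARHGAP6, an X-linked RhoA GAP gene, had a sense site of 472 bp in 4 of 5 Hylobates, all but H. moloch replicate 2, and in 0 of 18 other animals (Fisher's exact test, adjusted p = 0.00924). ARHGAP17, a Cdc42 GAP gene of epithelial junctions, had a 402 bp site in 3 N. leucogenys, H. moloch replicate 1 and H. muelleri, and it was not called.

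ARHGAP19, which encodes a RhoA GAP of dividing cells, held the only promoter member carried by every animal. The interval element, in sense orientation on chromosome 3 from 37092040 to 37093804, was 1765 bp long and matched the consensus from base 1 to base 1822. It was the only interval member that begins at the start of the consensus.

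Exchange factors of the ARHGEF and DOCK families contributed 8 intronic sites, 4 in ARHGEF and 4 in DOCK genes. ARHGEF11, a RhoA exchange factor gene downstream of G proteins, had a sense site of 1097 bp in 3 of 3 Hoolock and 0 of 20 other animals (chromosome 12, 45135535; Fisher's exact test, adjusted p = 0.00326). ARHGEF4, whose product ASEF is activated by the tumour suppressor APC, had an antisense site of 1656 bp in 5 of 5 Hylobates and 0 of 18 other animals (chromosome 20, 36886620; Fisher's exact test, adjusted p = 0.000841). ARHGEF3, a gene for a RhoA and RhoB exchange factor, had a site in 2 of 3 Hoolock and in no other animal, and was not called (Fisher's exact test, adjusted p = 0.0512). The ARHGEF26 site, in the gene of a RhoG exchange factor, was carried in all 4 genera, by 9 of 13 Nomascus, 5 of 5 Hylobates, 1 of 3 Hoolock and 2 of 2 Symphalangus animals.

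None of the 4 DOCK sites was called, while 46.7% of all sites were called in at least 1 comparison. DOCK9, a Cdc42 exchange factor gene, had 2 antisense sites 215935 bp apart on chromosome 5. The interval site from 126926645 to 126929072 was carried by all 23 animals and at 2428 bp was the longest member. It matched 1418 bp of the consensus, 1010 bp fewer than its length. The other DOCK9 site, of 1102 bp, had carriers in 2 N. leucogenys, N. gabriellae replicate 2 and H. moloch replicate 2. In the related gene DOCK11 a 462 bp site was carried by some animals of every genus, namely 7 of 13 Nomascus, 3 of 5 Hylobates, 1 of 3 Hoolock and 1 of 2 Symphalangus animals. DOCK8, a Cdc42 exchange factor gene of immune cells, had a 461 bp site in H. lar and Hoolock replicate 1 only.

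Rab GTPases and Rab-named partners contributed 11 sites in 10 genes. Of these, 4 were interval sites carried by all 23 animals. RAB5A marks early endosomes (chromosome 4, 132961415 to 132962765, antisense), RAB11A marks recycling endosomes (chromosome 6, 85291356 to 85292090, antisense), RAB27A acts in the transport of melanosomes and secretory granules (chromosome 6, 45044050 to 45044624, sense) and RAB3C acts in regulated exocytosis (chromosome 18, 70127184 to 70128019, antisense). Over all members 7 sites (14.3%) were carried by every animal, against 16.5% of the other named sites, and the Rab group held 4 of the 7.

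The Hoolock pattern, in 3 of 3 Hoolock and 0 of 20 other animals, was shown by 17.3% of all sites. A further 3 of the 11 Rab sites showed it (Fisher's exact test, adjusted p = 0.00326 each). They were a promoter site of RAB28, a Rab gene of cilia and photoreceptors (chromosome 20, 73182945, 1361 bp, sense), and intronic sites of RAB31, a gene of trafficking between the trans-Golgi network and endosomes (chromosome 4, 70146883, 778 bp, sense), and RAB43, a gene of Golgi traffic (chromosome 21, 52015196, 550 bp, antisense). The intronic site of RAB39A, a Rab gene of endosomes and phagosomes, was carried by 5 of 5 Hylobates and 0 of 18 other animals (chromosome 15, 27711242, 455 bp, sense; Fisher's exact test, adjusted p = 0.000841). RAB11FIP3, the gene of a RAB11 effector, had a site in H. pileatus and Hoolock replicate 1 only and was not called.

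RAB3D, which encodes a Rab of secretory granules, had 2 antisense intronic sites 4069 bp apart on chromosome 10. The 383 bp site at 62987585 was carried by 4 of 11 N. leucogenys, both N. gabriellae, H. moloch replicate 1, H. muelleri and Symphalangus replicate 1. The 1626 bp site at 62991654 was carried by 2 N. leucogenys and no other animal. No animal carried both, and 11 carried either. Neither site was called.

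Rab regulators were represented by 2 TBC1D and 7 DENND sites. TBC1D7, whose product is a subunit of the TSC complex, had a near full-length antisense site of 1824 bp in 3 of 3 Hoolock and 0 of 20 other animals (chromosome 8, 64093733; Fisher's exact test, adjusted p = 0.00326). TBC1D5, a gene of retromer and Rab7 regulation, had a sense site of 1707 bp with 1 missing call in Hylobates. Its carriers were 2 of 13 Nomascus, 1 of 5 Hylobates, 3 of 3 Hoolock and 1 of 2 Symphalangus animals. It was the only single-base member of at least 540 bp carried in all 4 genera, and it was not called.

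DENND2C, a Rab9 exchange factor gene, held the only member called lower in Hylobates. The interval site, in sense orientation on chromosome 12 from 63129299 to 63130122, was carried by 0 of 5 Hylobates and by all 18 other animals (Fisher's exact test, adjusted p = 0.000841). The call at this site was present for each of the 23 animals.

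The other DENND sites, in genes of Rab exchange factors, were each found in a single genus, and 4 of the 7 in Hylobates alone. Among the other named sites 51.9% were found in 1 genus and 15.2% in Hylobates alone. Over all 49 members the shares were 49% and 14.3%, and the count in this small family was not tested. DENND3 had a full-length antisense site of 1839 bp in 4 of 5 Hylobates, all but H. lar, and in 0 of 18 other animals (chromosome 16, 96366230; Fisher's exact test, adjusted p = 0.00924). The promoter site of DENND1C, antisense and 464 bp long, was carried by H. lar and both H. moloch (chromosome 10, 67639848; Fisher's exact test, adjusted p = 0.0458). That call ended when any 1 of its 3 carriers or any 1 of the 13 Nomascus animals was left out, with an adjusted p of up to 0.165 by Fisher's exact test. DENND2A and DENND4A each had a site carried by H. moloch replicate 1 and H. muelleri alone, and neither was called.

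DENND6A, a Rab14 exchange factor gene, had 2 antisense intronic sites 5855 bp apart on chromosome 4, each found in a different genus. The full-length site at 94923815, of 1839 bp, was carried by 2 of 2 Symphalangus and 0 of 21 other animals (Fisher's exact test, adjusted p = 0.0411). The 759 bp site at 94929670 was carried by 3 of 3 Hoolock and 0 of 20 other animals (Fisher's exact test, adjusted p = 0.00326). The Symphalangus call ended when either Symphalangus animal was left out, with an adjusted p of 0.471 by Fisher's exact test. The same loss holds for every site called higher in Symphalangus.

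Ras and Rap exchange factors contributed 4 intronic sites. RAPGEF6, a Rap exchange factor gene, had 2 sites 1773 bp apart on chromosome 2, and was the only gene whose 2 sites lay in opposite orientations. The near full-length antisense site at 145974435, of 1837 bp, was carried by 5 of 5 Hylobates and 2 of 18 other animals, both Hoolock (Fisher's exact test, adjusted p = 0.00924). The same site was the only member called in 2 comparisons, with 0 of 13 carriers in Nomascus against 7 of 10 other animals (Fisher's exact test, adjusted p = 0.00824). The Nomascus count includes 1 missing call, counted as not carried. The 441 bp sense site at 145976208 was carried by 5 of 5 Hylobates and 4 of 18 other animals, all Nomascus (Fisher's exact test, adjusted p = 0.045). The call at the sense site ended when any 1 Hylobates animal or any 1 of the 9 Nomascus animals that lack it was left out, with an adjusted p of up to 0.112 by Fisher's exact test. All 5 Hylobates animals carried both sites and no other animal did.

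RAPGEF5, another Rap exchange factor gene, had an antisense site of 1403 bp in 3 of 3 Hoolock and 0 of 20 other animals (chromosome 11, 45053846; Fisher's exact test, adjusted p = 0.00326). The RASGRP3 site, in the gene of a diacylglycerol-regulated Ras and Rap exchange factor, was carried by 11 of 13 Nomascus, 5 of 5 Hylobates, 2 of 3 Hoolock and 1 of 2 Symphalangus animals. With 19 carriers it was the most widely carried single-base member, and it was not called.

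Ras and Rap GTPase-activating genes contributed 5 intronic sites, all antisense. SIPA1L3, a Rap GAP gene, had 2 sites. Its 455 bp site on chromosome 11 at 46673971 was carried by 0 of 13 Nomascus and 10 of 10 other animals (Fisher's exact test, adjusted p = 8.42e-05), the smallest value that the Nomascus comparison can give. The second SIPA1L3 site, of 462 bp and 84917 bp away, was carried by both N. gabriellae, by no N. leucogenys and by 6 of the 10 animals of other genera, and was not called.

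SIPA1L1, the gene of a Rap GAP of dendritic spines, had a near full-length site of 1838 bp in 2 of 2 Symphalangus and 0 of 21 other animals (chromosome 1a, 103970914; Fisher's exact test, adjusted p = 0.0411). Leaving out either Symphalangus animal ended that call, as it did every higher call in Symphalangus, with an adjusted p of 0.471 by Fisher's exact test. A 451 bp site of the same gene, 274052 bp away, was carried by 1 N. leucogenys, H. muelleri and Symphalangus replicate 1. RASAL2, a Ras GAP gene, had a 451 bp site in 1 N. leucogenys and 1 N. gabriellae. IQGAP1, the gene of a scaffold that binds Cdc42 and Rac, had a 555 bp antisense site in 2 of 3 Hoolock and in no other animal. None of these 3 was called.

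In all, 8 of the 41 member genes (19.5%) had 2 sites, against 15.7% of the 2566 other gene names with 2 or more. The 2 sites had the same orientation in 7 of the 8 genes, antisense in each. The same count was not made for the other gene names. Antisense was the commoner orientation in both sets, as 32.6% of intronic members and 38.5% of the other intronic sites were sense.

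The table places each element on a consensus whose last base is 1839. Members were shorter by the median, 815 bp (quartiles 455 and 1626), than the other named sites, 1342 bp (quartiles 463 and 1696), and the quartiles overlapped widely. At least 540 bp was reached by 22 of the 40 single-base members, and 18 (45%, exact 95% interval 29.3 to 61.5) were shorter. Among the other named single-base sites 36.4% were shorter. A near full-length element, which starts at or before consensus base 20, was present at 7 of the 40, or 17.5%, against 19.7% of the other named single-base sites.

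**Figure D2:**
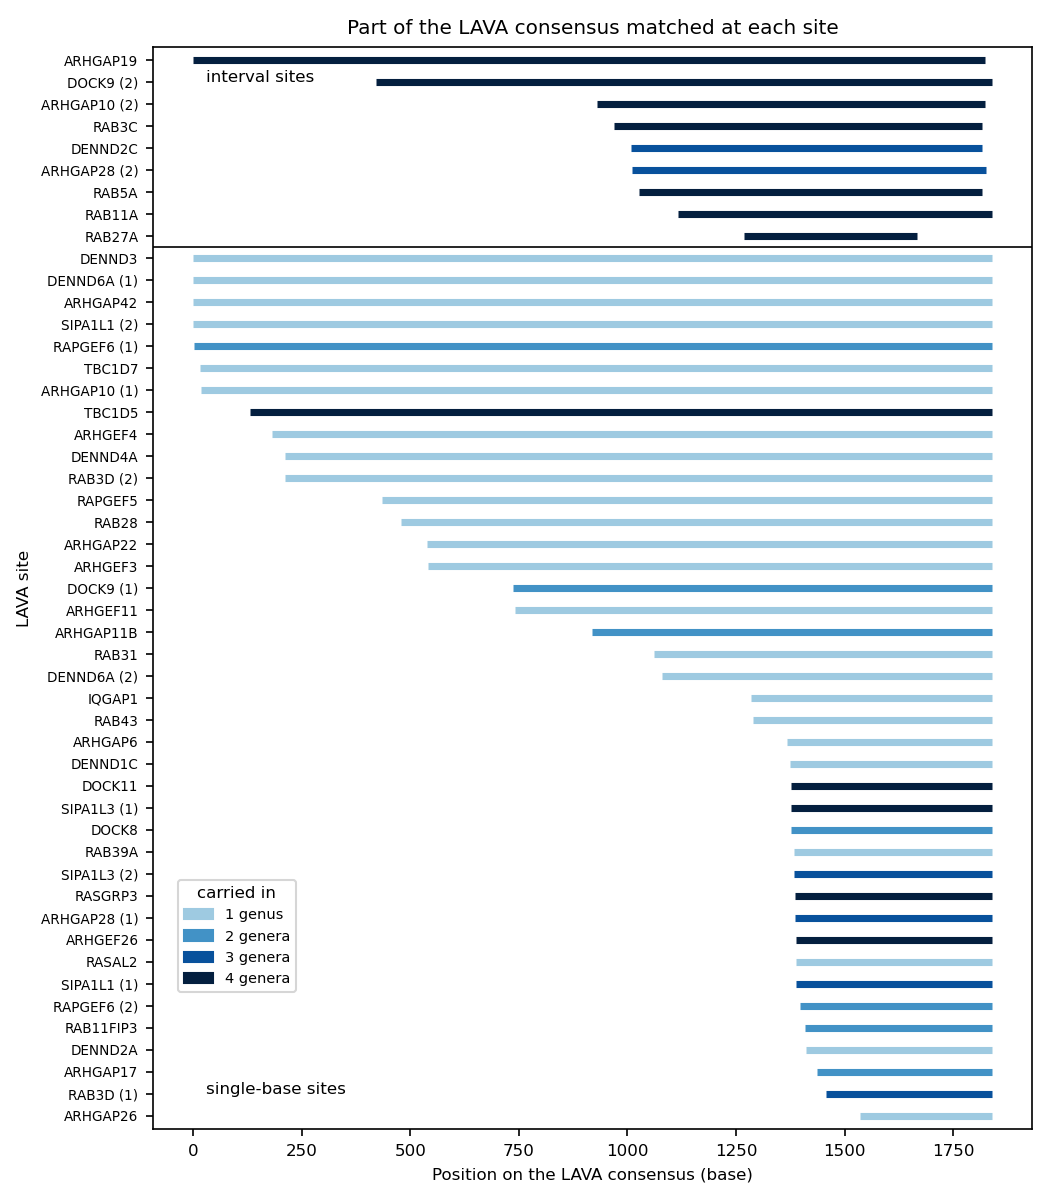
Stretch of the LAVA consensus (base positions on the x axis) matched at each of the 49 member sites, with interval sites above the line and single-base sites below it. Shade gives the number of genera that carry the site. Elements that reach from the start to the end of the consensus are mostly carried in 1 genus, and many elements that start near base 1385 are carried in 3 or 4.

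The short and long single-base members differed in how widely they were carried, a split made with the values known and given without a test. Of the 18 under 540 bp, 12 (66.7%) were carried in at least 2 genera. Of the 22 of at least 540 bp, 4 (18.2%) were. The other named single-base sites showed the same order, with 52.5% of the short and 25.7% of the long ones in at least 2 genera. Elements starting from consensus base 1300 to below 1400 made up 13 of the 40 single-base members, 32.5% against 25.1% of the other named single-base sites. Of these, 4 were carried in all 4 genera (30.8%, against 15.6%), those in ARHGEF26, DOCK11, RASGRP3 and SIPA1L3. Some but not all Nomascus animals carried 8 of the 13 (61.5%, against 44.1%). At the longer elements the usual pattern was the other one, with 12 of 22 carried by every animal of 1 genus and no other. That was 54.5%, against 50.8% of the other named single-base sites of that length. All of these but the ARHGEF4 site were found in Hoolock or Symphalangus, the genera with only 3 and 2 animals.

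**Figure D3:**
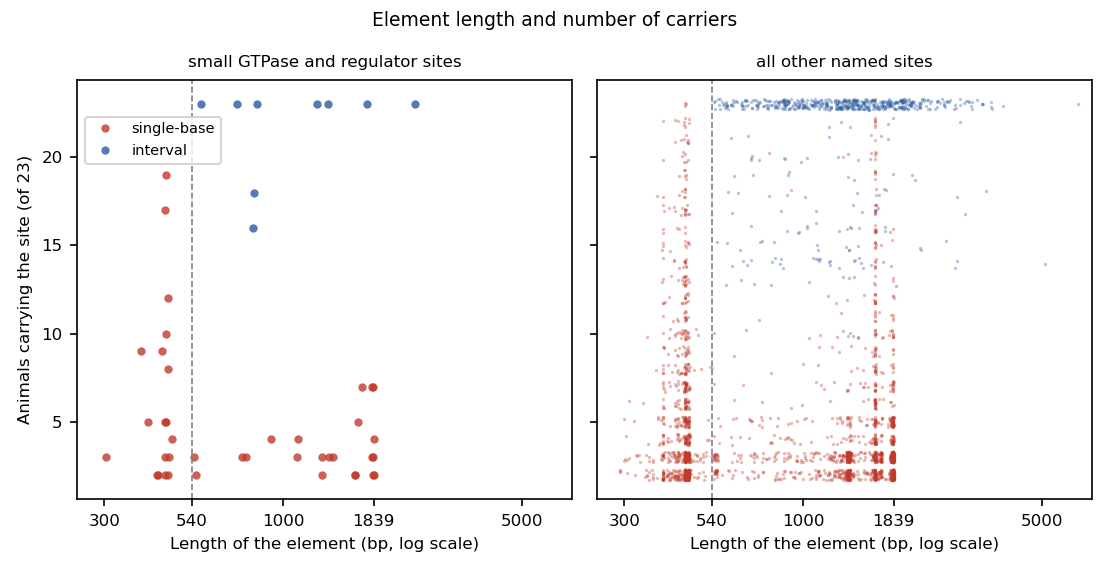
Element length (x axis, log scale, bp) and number of animals that carry the site (y axis, of 23) for the 49 member sites (left) and the 3094 other named sites (right; points are shifted slightly up or down to separate them). The dashed line marks 540 bp. Among members, single-base sites of at least 540 bp have at most 7 carriers, and shorter ones have up to 19.

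Interval members were carried widely. All 13 Nomascus animals carried each of the 9, and 7 of the 9 were carried by all 23 animals (77.8%), against 82% of the other named interval sites. The exceptions were those in ARHGAP28 and DENND2C. At 4 of the 9 the element was over 100 bp longer than the consensus stretch it matched, those in DOCK9, RAB5A, ARHGAP10 and RAB27A. Among the other named interval sites 344 of 618 were.

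Members resembled the other named sites in most shares, and no test of the list was made. The intronic class held 93.9% (exact 95% interval 83.1 to 98.7) of members and 87.2% of the other named sites. The promoter class held 6.12% and 5.49%, and the interval form 18.4% and 20%. Of intronic members, 15 of 46 lay in sense orientation, 32.6% (exact 95% interval 19.5 to 48), against 38.5% of the other intronic sites. The antisense excess was thus present in both sets. At interval sites 2 of 8 intronic members were in sense orientation, 25% against 25.6%, and at single-base sites 13 of 38, 34.2% against 41.7%.

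**Figure D4:**
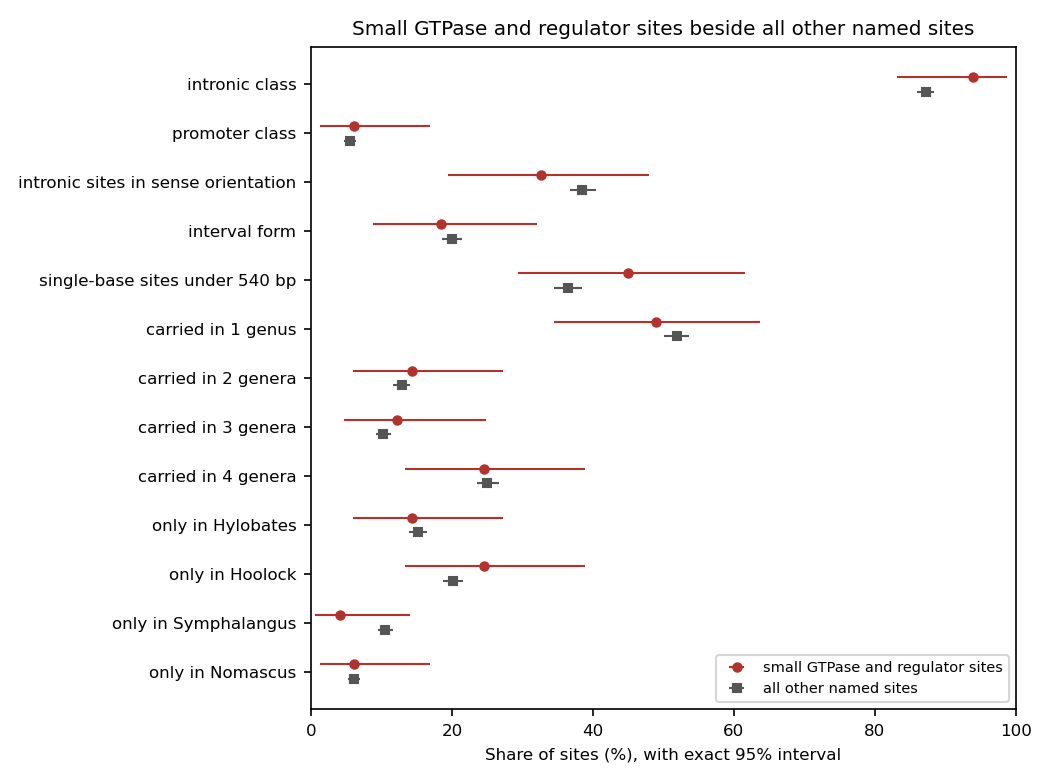
Shares of the 49 member sites (circles) and of the 3094 other named sites (squares), in percent, by location class, orientation, form, length and genera carrying. Bars are exact 95% intervals, which cover counting error only. For each share plotted, the value of the other named sites lies inside the members' interval.

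By genera, 24 members (49%) were carried in 1 genus, 7 in 2, 6 in 3 and 12 (24.5%) in all 4. The other named sites had 51.9% in 1 genus and 25% in all 4. Among members of a single genus, 12 were found in Hoolock, 7 in Hylobates, 3 in Nomascus and 2 in Symphalangus. Hoolock held 24.5% of members alone (exact 95% interval 13.3 to 38.9), against 20.1% of the other named sites. Symphalangus held 4.08% (exact 95% interval 0.498 to 14), against 10.5%. No member was carried by every Nomascus animal and no other animal, a pattern that 0.31% of all sites showed.

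Hoolock animals carried the most member sites. The 3 Hoolock animals carried 25, 27 and 29 and the 5 Hylobates animals 18 to 23, with a median of 21. The 2 Symphalangus animals carried 15 and 17. The 13 Nomascus animals carried 11 to 18, with a median of 13. The Hoolock range lay above all others, and the Symphalangus values lay inside the Nomascus range.

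The Hoolock mean was 27 ± 2 (SD, n = 3), the Hylobates mean 20.4 ± 2.3 (SD, n = 5), the Symphalangus mean 16 ± 1.41 (SD, n = 2) and the Nomascus mean 13.6 ± 2.06 (SD, n = 13). In percent of the 49 members the Hoolock mean was 55.1, the Hylobates mean 41.6, the Symphalangus mean 32.7 and the Nomascus mean 27.8. In percent of the other named sites they were 50.1, 40.5, 42.5 and 29.2 in the same order of genera. Symphalangus thus ranked below Hylobates at members and above it at the other named sites, and that difference was not tested. The 9 interval members were carried by every Nomascus animal, so the spread in Nomascus came from single-base members, of which the animals carried 2 to 9.

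**Figure D5:**
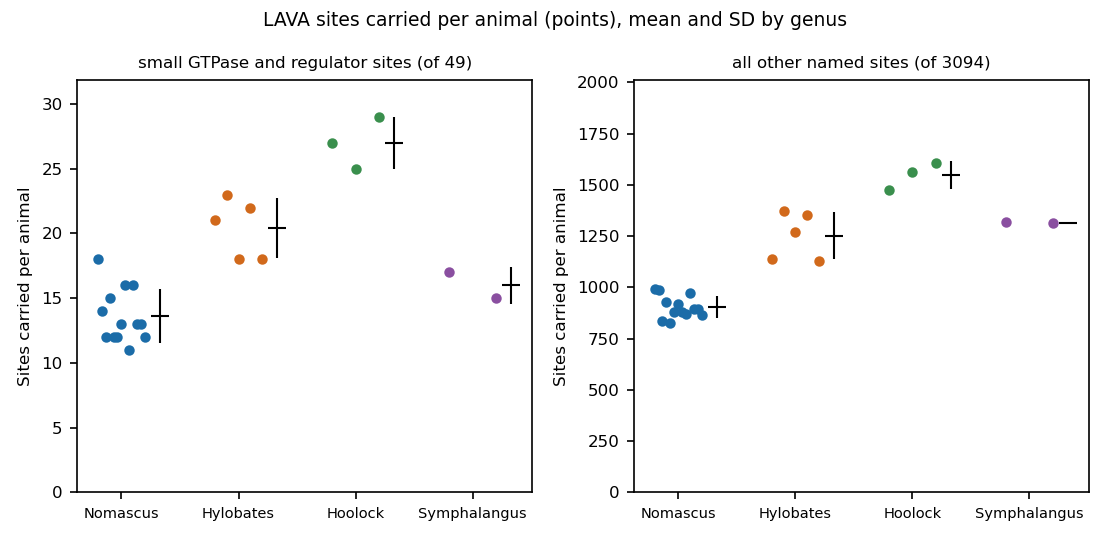
Number of sites carried by each animal (points) at the 49 members (left) and at the 3094 other named sites (right), by genus, with the mean and SD beside the points. At members the 3 Hoolock animals lie between 25 and 29, above the other animals, and the 2 Symphalangus animals lie at 15 and 17, within the Nomascus range.

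Within genera, members were carried by all or by some animals in shares that followed the other named sites. In Hoolock 21 of 32 carried members were found in every animal (65.6%, against 67.8% of the other named sites). In Hylobates 14 of 30 were (46.7%, against 42%) and in Symphalangus 13 of 19 (68.4%, against 78.7%). In Nomascus 9 of 23 were (39.1%, against 46.6%), and all 9 were interval sites. In N. leucogenys 21 members were carried, 9 by all 11 animals, 10 by 2 to 10 and 2 by 1.

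Among the 5 Hylobates animals, H. moloch replicate 1 and H. muelleri differed at 3 of 49 members (6.12%), the fewest of the 10 pairs. The 2 H. moloch animals differed at 9 of the 48 members called in both (18.8%), against 14.3% of the other named sites. The most, 11 of 49 (22.4%, against 18.8%), separated H. lar and H. muelleri. At the other named sites H. moloch replicate 1 and H. muelleri also differed least, at 11.2%.

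A list of 171 other genes of small GTPase pathways, such as further GTPases, their other regulators and their effectors, held 53 sites in 42 genes. Of these, 10 were called higher in Hoolock, 8 higher in Symphalangus, 5 higher and 1 lower in Hylobates, and 1 lower in Nomascus, by the Fisher's exact tests above. Over all sites the shares were 18.7% higher in Hoolock, 9.58% higher in Symphalangus, 11.5% higher and 0.856% lower in Hylobates and 4.79% lower in Nomascus. CDC42, a GTPase gene of cell polarity, had an interval site carried by all 23 animals (chromosome 24, 21163150 to 21164094, antisense). ROCK1, a kinase gene downstream of RhoA, had a site in 3 of 3 Hoolock and 0 of 20 other animals, and RAC1 one in 2 of 2 Symphalangus and 0 of 21 other animals. NF1, a Ras GAP gene, had 1 site in 5 of 5 Hylobates and 0 of 18 other animals and 1 in 2 of 3 Hoolock animals alone. BCR, a Rac GAP gene, had the interval site called lower in Hylobates, with 2 of 5 Hylobates and 18 of 18 other animals carrying it (adjusted p = 0.0458 by Fisher's exact test).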

How the data were processed

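Per the labels' protocols, genomic DNA from gibbon blood was sheared and made into libraries for Illumina sequencing. The submitters' processing notes name BWA, without a version. The insertion caller, its filters, the build and the annotation are named in no source used here. The authors deposited 1 table with a call per site and animal and, per site, a position, a length, consensus positions, a class, an orientation and a gene name, per the file headers. All 23 columns of calls were matched to animals by title.

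Groups are the species in the labels, joined to genera. Fisher's exact test was written in Python 3.11.15 with scipy 1.17.1, checked against scipy's own function and tested on simulated data. Intervals of shares are exact (Clopper-Pearson) and reflect counting error alone. Members are described beside other named sites by counts, shares and medians, without a test. Alternatives were other treatment of missing calls, a 540 bp length limit, single-base sites alone, Bonferroni adjustment, gene-body sites alone, hyphenated names, and each animal left out in turn.

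The members, lists and limits were chosen with earlier results of these data known. Given with carriers by genus were genes with 2 sites, promoter sites, sites of all animals and sites of every animal of 1 genus alone, and the remaining members more briefly. No genome was used, so no sequence is shown.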

Additional observations from a re-analysis of the deposited data

How the results depend on the processing

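Leaving out missing calls changed none of the 24 member calls. Limiting members to the gene body dropped the promoter calls of RAB28 in Hoolock and of DENND1C in Hylobates, and no other call. Bonferroni adjustment over all sites kept 1 of the 24, the lower share of SIPA1L3 in Nomascus. It left 0 higher and 1 lower in Nomascus. In Hylobates, Hoolock and Symphalangus it left 0, an outcome fixed by the numbers of animals, as no attainable p-value there can pass. Many sites share the same few attainable p-values. At 540 bp and above, 1 member was lower in Nomascus and 3 were higher in Hylobates, since the shorter called sites are not tested there. Single-base sites alone gave 0 higher in Nomascus and 0 lower in Hylobates, as both called sites are interval sites. With 1 animal left out, calls ranged from 1 to 2 higher and 2 to 4 lower in Nomascus, 5 to 8 higher and 1 to 2 lower in Hylobates, 10 to 11 higher in Hoolock and 0 to 2 higher in Symphalangus. The upper Nomascus values came from leaving out any 1 Hoolock or Symphalangus animal, the 2 lower in Hylobates from leaving out H. lar, and the 0 from leaving out either Symphalangus animal. Over all sites, the 263 lower in Nomascus became 123 at 540 bp and above, 40 with Bonferroni adjustment and 470 to 481 without any 1 Hoolock or Symphalangus animal, and the 165 higher in Nomascus became 29 at single-base sites and 17 with Bonferroni adjustment. The 630 higher in Hylobates became 270 at 540 bp and above and as few as 378 without 1 animal, and the 47 lower became 6 at single-base sites and 11 to 71 without 1 animal. With Bonferroni adjustment no site could be called in the Hylobates, Hoolock or Symphalangus comparison. The smallest p-values there by Fisher's exact test were 2.97e-05, 0.000565 and 0.00395, too large to pass over 5490 sites. Without 1 Symphalangus animal none was called higher in Symphalangus.

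The share of members in all 4 genera was 12.5% among single-base sites alone, and the other shares moved by less than their interval. The median length, 815 bp over all members, was 1351 bp at 540 bp and above and 657 bp at single-base sites. With 1 animal left out the share in all 4 genera was 20.4% to 24.5% and the share in a single genus 49% to 53.1%. Mean member sites per animal at 540 bp and above were 21.7 (Hoolock), 11 (Hylobates), 10.5 (Symphalangus) and 10.1 (Nomascus), and at single-base sites alone 18.3, 13.2, 8 and 4.62 in the same order. With the 2 hyphenated names the Symphalangus mean was 18. With 1 animal left out the Hoolock mean was 26 to 28, the Hylobates mean 19.8 to 21, the Symphalangus mean 15 to 17 and the Nomascus mean 13.2 to 13.8. No paired analysis was possible because the labels give no replicate numbers that tie animals of different species together.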

Other observations

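The rule left out 2 hyphenated names of antisense RNA genes that share a member prefix. RAPGEF4-AS1 had an intronic interval site on chromosome 22a from 62564731 to 62565591 that all 23 animals carried. DENND6A-AS1 had a 1368 bp site on chromosome 4 at 94950245, carried by both Symphalangus animals and no other animal, on the same chromosome as the DENND6A site of those animals at 94923815. The table gives its orientation as sense relative to DENND6A-AS1, and antisense relative to DENND6A for the sites named after that gene.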
